A study of Bos taurus with 6 samples.

Results

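Histone acetylation is written, erased and read by a defined set of enzymes and co-regulators, and 37 bovine genes of this machinery were examined: histone deacetylases, sirtuins, acetyltransferases, coactivators, co-repressor scaffolds and bromodomain readers. They are a list of gene symbols, drawn up by role when earlier results of these data were known. Of the 37, 35 had a row among the 24616 genes of the deposited table, and 34 reached the mean of 1 FPKM required for testing (FPKM, a level per length, counts the fragments of a gene relative to its length and to the mapped total). HDAC3 and NCOA1 were not analysed here. HDAC9 was listed at 0 in all 6 libraries, as was the ribosomal protein gene RPL27, so a value of 0 here does not show that a transcript was absent.

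All libraries came from mammary epithelial cells of cattle (Bos taurus), the milk-forming cells of the gland, grown in culture. In 3 RNA-seq libraries acetate (as NaAc, its sodium salt) and BHBA (beta-hydroxybutyrate) had been added to the cells, and 3 libraries came from control cells. The series calls the treated libraries its high-milk-fat samples. The sources used here give no doses, treatment time, breed or origin of the cells, and the labels name no control matched for sodium. Whether the 3 libraries of a group stand for separate cultures is not said, and p-values therefore measure only the spread between libraries, which may be technical. Control replicate 1 and treated replicate 1 stood apart from the other libraries of their groups. Values without control replicate 1 are given beside some of the members, not all.

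Acetyltransferases transfer the acetyl group of acetyl-CoA to histone lysines, which loosens chromatin and creates docking sites for bromodomain proteins. Deacetylases remove it, some of the zinc-dependent HDACs within large co-repressor complexes and the sirtuins with NAD+ as co-substrate. Acetate can be turned into acetyl-CoA, and BHBA, like the related butyrate, is known from other cells as an inhibitor of class I deacetylases. RNA levels, which are what was measured, say nothing of enzyme activity or of acetylation itself.

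None of the 34 members tested passed the threshold in either direction (limma moderated test on log2(FPKM + 0.5), Benjamini-Hochberg adjusted p under 0.05 over 11615 genes, n = 3 per group). Across all genes 0.474% were called, 40 higher and 15 lower in treated cells. At an unadjusted p under 0.05 limma gave 2 members, HDAC5 and SIRT2, which is 5.88% of those tested, against 11.0% of all genes in either direction and 7.42% on the higher side. The treated and control values did not overlap in 3 members (8.82%), HDAC5 and SIRT2 on the higher side and KAT5 on the lower, against 19.7% of all genes (13.0% on the higher side and 6.69% on the lower). The median log2 fold change of the members was 0.07, and that of all genes tested was 0.08. Fold changes on this scale understate the change of low genes, and in bulk RNA fewer cells that express a gene and less RNA per cell cannot be told apart.

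Precision differed widely between members. The 95% interval of the difference lay within a 2-fold change either way for 24 of the 34, taking each gene by itself. For the other 10 the interval reached beyond 2-fold on at least 1 side. Those 10 were HDAC10, SIRT3, KAT2B, KAT6A, KAT6B, EP300, NCOA2, NCOA3, SIN3A and BRD3.

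**Figure D1:**
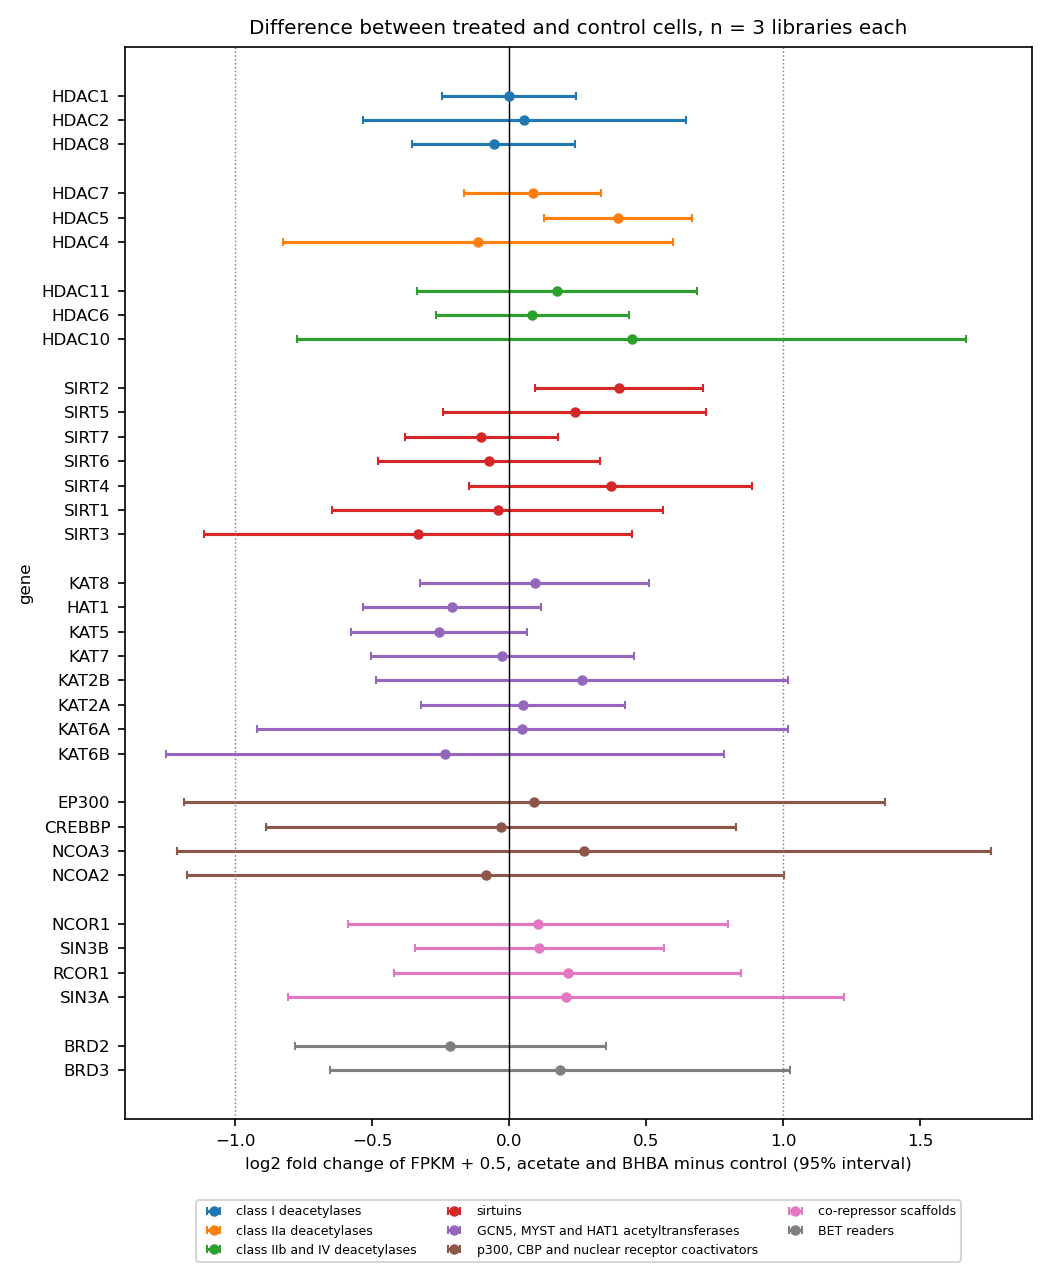
Log2 fold change of FPKM + 0.5, acetate and BHBA minus control, for the 34 members tested (points), with 95% intervals from limma (bars) and dotted lines at a 2-fold change. Only the intervals of HDAC5 and SIRT2 leave out 0, and neither passed after adjustment over all genes; the sides of members close to 0 differ between scalings.

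Levels spanned a wide range. Averaged over the 6 libraries, 7 members lay below 5 FPKM, 16 between 5 and 20, and 11 at 20 or more. HDAC1 (86.6 FPKM), BRD2 (74.1 FPKM) and SIRT2 (58.5 FPKM) were the 3 members above 50 FPKM. At the low end stood SIRT3 (1.69 FPKM), KAT6B (1.95 FPKM) and HDAC4 (2.17 FPKM). The plot of levels by gene shows that values for HDAC1, HDAC7 and SIRT7 lie close together, while those of the coactivators are spread out.

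**Figure D2:**
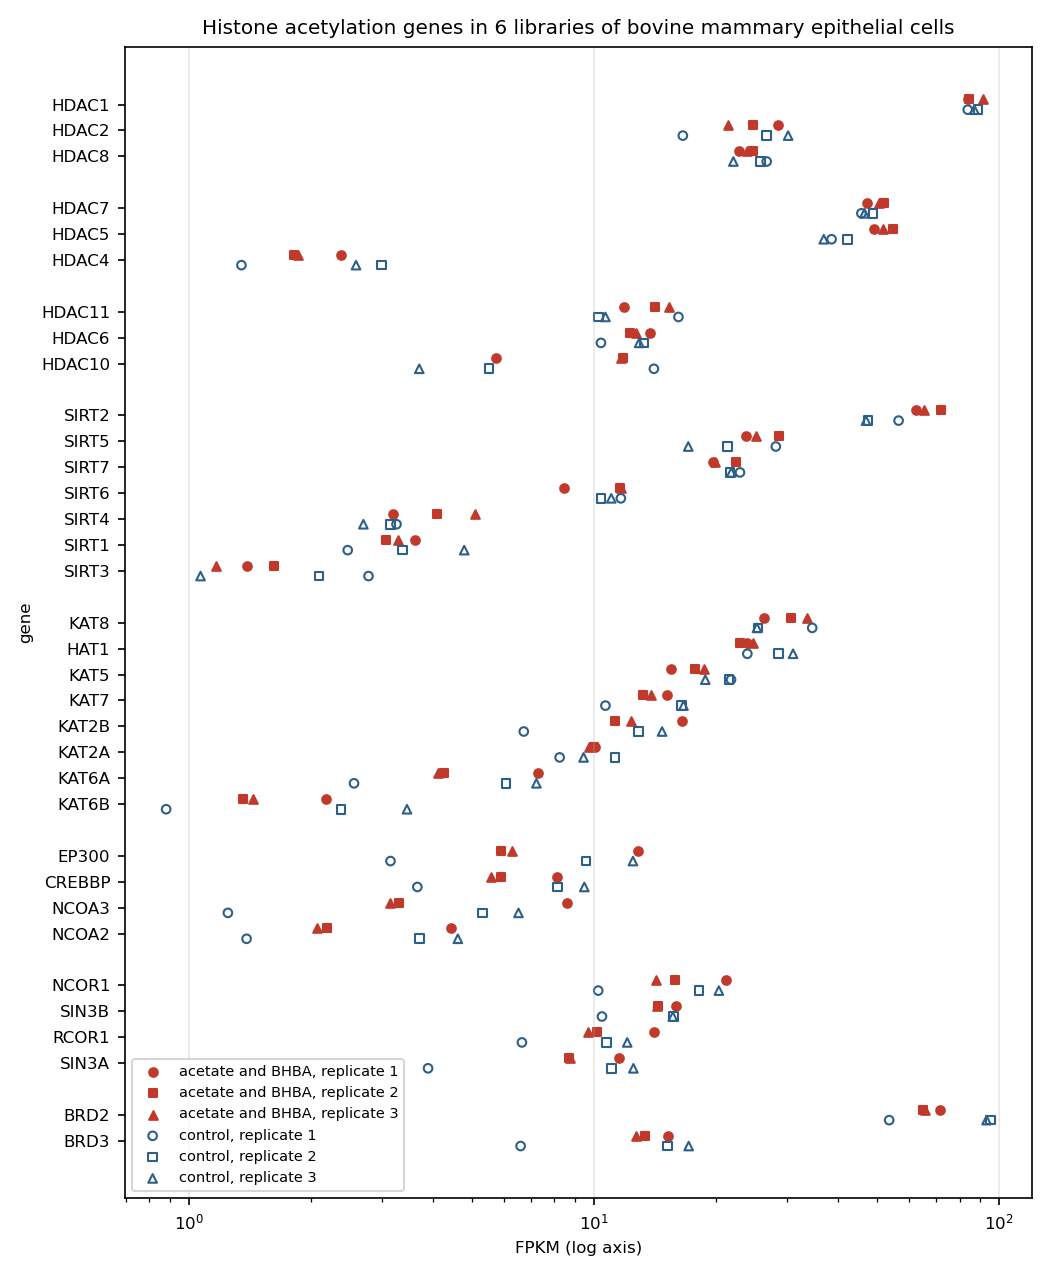
FPKM (log axis) of each of the 34 members in 3 acetate and BHBA libraries (filled) and 3 control libraries (open), grouped by role and ordered by mean level. NCOA3 reaches 8.58 FPKM in treated replicate 1, against 1.25 FPKM in control replicate 1, while HDAC1 stays between 83.8 and 91.3 FPKM.

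The class I deacetylases are nuclear enzymes that work mainly inside co-repressor complexes. HDAC1 (ENSBTAG00000012698), a catalytic subunit shared by the SIN3, NuRD and CoREST complexes, had 84.05, 84.39 and 91.30 FPKM in treated libraries 1, 2 and 3, against 83.83, 88.78 and 87.05 FPKM in control libraries 1, 2 and 3. The groups overlapped throughout. Its log2 fold change was -0.00 ± 0.10 SE, with a 95% interval from -0.25 to 0.25 (limma adjusted p = 0.9996), so it was among the members measured most tightly. HDAC2 (ENSBTAG00000011849), its close paralog and usual partner, had 28.57, 24.67 and 21.41 FPKM in treated libraries, against 16.60, 26.71 and 30.20 FPKM in control libraries. The control range enclosed the treated one, and the log2 fold change was 0.06 ± 0.25 (adjusted p = 0.968). HDAC8 (ENSBTAG00000046092), a class I enzyme that is not held in those complexes, had 22.87, 24.77 and 23.86 FPKM in treated libraries, against 26.73, 25.78 and 22.12 FPKM in control libraries. Treated values again lay inside the control range (log2 fold change -0.06 ± 0.12, adjusted p = 0.938). Together these 3 genes summed to 135 ± 1.38 FPKM in treated cells and 136 ± 7.66 FPKM in control cells (SD, n = 3 each).

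HDAC5, a class IIa deacetylase that shuttles between nucleus and cytoplasm and represses MEF2 factors, had the smallest p of all members. HDAC5 (ENSBTAG00000016254) had 49.09, 54.86 and 51.74 FPKM in treated libraries, against 38.66, 42.31 and 36.98 FPKM in control libraries. Every treated value lay above every control value. The means were 51.9 ± 2.89 FPKM in treated cells and 39.3 ± 2.73 FPKM in control cells, a log2 fold change of 0.40 ± 0.11 SE (95% interval 0.13 to 0.67, 1.32-fold) that did not pass (adjusted p = 0.248, range over the alternatives 0.0157 to 0.999). HDAC7 (ENSBTAG00000026819), a class IIa enzyme best known from lymphocytes and endothelium, had 47.38, 52.15 and 50.66 FPKM in treated libraries, against 45.80, 48.90 and 46.61 FPKM in control libraries. Treated replicate 1 lay inside the control range, and the log2 fold change was 0.09 ± 0.10 (95% interval -0.16 to 0.34, adjusted p = 0.898). HDAC4 (ENSBTAG00000017764), from the same class, was low, at 2.02 ± 0.312 FPKM in treated cells and 2.31 ± 0.855 FPKM in control cells (log2 fold change -0.11 ± 0.30). Without control replicate 2 the HDAC4 log2 fold change was 0.07.

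HDAC10, a class IIb enzyme known to deacetylate polyamines, had the widest spread of the deacetylases. HDAC10 (ENSBTAG00000011000) had 5.74, 11.81 and 11.70 FPKM in treated libraries, against 14.08, 5.52 and 3.71 FPKM in control libraries. Control replicate 1 was the highest of all 6 and control replicate 3 the lowest, so the log2 fold change of 0.45 ± 0.51 had a 95% interval from -0.77 to 1.67 (adjusted p = 0.887). HDAC11 (ENSBTAG00000007208), the sole class IV enzyme, had 11.91, 14.20 and 15.34 FPKM in treated libraries, against 16.19, 10.26 and 10.69 FPKM in control libraries. Here too control replicate 1 was the highest, and the log2 fold change was 0.17 ± 0.21 (adjusted p = 0.898). Without control replicate 1 every treated value lay above both controls in HDAC10 and HDAC11, with log2 fold changes of 0.96 and 0.38 (adjusted p = 0.227 and 0.247). HDAC6 (ENSBTAG00000013244), the cytoplasmic tubulin deacetylase, stood at 12.9 ± 0.753 FPKM in treated cells and 12.2 ± 1.57 FPKM in control cells (log2 fold change 0.09 ± 0.15).

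Of the 7 sirtuins, SIRT2 had the highest level and was the member whose groups did not overlap. SIRT2 (ENSBTAG00000001776), a mainly cytoplasmic deacetylase of tubulin and, during mitosis, of histone H4, had 62.30, 72.02 and 65.35 FPKM in treated libraries, against 56.59, 47.53 and 47.03 FPKM in control libraries. No treated value overlapped the controls. Means were 66.6 ± 4.97 FPKM in treated cells and 50.4 ± 5.38 FPKM in control cells, with a log2 fold change of 0.40 ± 0.13 SE (95% interval 0.10 to 0.71, 1.32-fold) that did not pass (adjusted p = 0.301, range over the alternatives 0.00485 to 0.999). SIRT4 (ENSBTAG00000021168), a mitochondrial sirtuin, had 3.19, 4.11 and 5.08 FPKM in treated libraries, against 3.26, 3.15 and 2.70 FPKM in control libraries. Treated replicate 1 lay within the control range, and the log2 fold change was 0.37 ± 0.21 (adjusted p = 0.654).

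The other 5 sirtuins did not pass either. SIRT5 (ENSBTAG00000014904), the mitochondrial desuccinylase, averaged 25.9 ± 2.50 FPKM in treated cells and 22.2 ± 5.57 FPKM in control cells (log2 fold change 0.24 ± 0.20). SIRT3 (ENSBTAG00000002044), the main mitochondrial deacetylase and the one that acts on ketone body and acetate enzymes in mice, was low, at 1.39 ± 0.225 FPKM in treated cells and 1.98 ± 0.861 FPKM in control cells (log2 fold change -0.33 ± 0.32). SIRT1 (ENSBTAG00000014023), a nuclear deacetylase of histones and transcription factors, had a log2 fold change of -0.04 ± 0.25, which was 0.17 without control replicate 3. SIRT6 (ENSBTAG00000019909) and SIRT7 (ENSBTAG00000000039), which are bound to chromatin and act in genome maintenance and ribosomal RNA transcription, had log2 fold changes of -0.07 ± 0.17 and -0.10 ± 0.12. For SIRT7 the 95% interval ran from -0.38 to 0.18, one of the narrowest among the members. For SIRT6, treated replicate 1 was the lowest library at 8.45 FPKM, and without it the log2 fold change was 0.07.

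**Figure D3:**
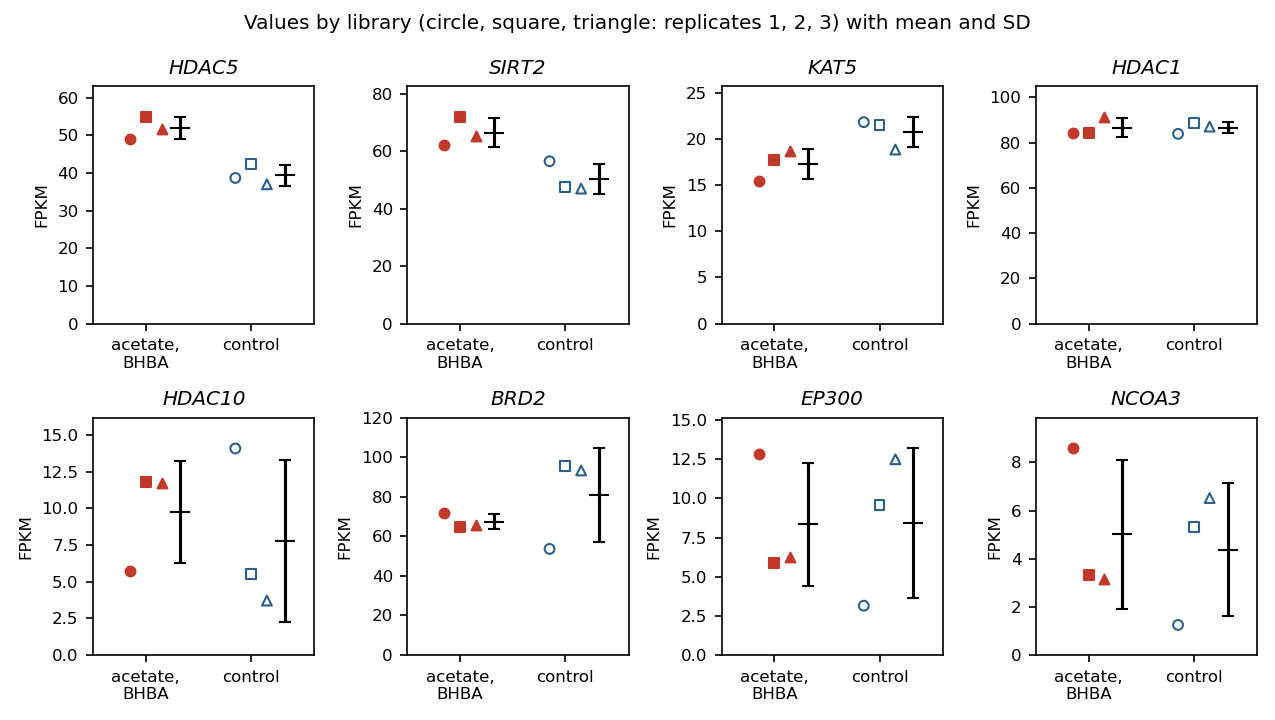
FPKM of 8 members in 3 acetate and BHBA libraries (left, filled) and 3 control libraries (right, open), with the group mean and SD. HDAC5 and SIRT2 are higher and KAT5 lower without overlap, HDAC1 is level, and in HDAC10, BRD2, EP300 and NCOA3 control replicate 1 lies far from the other controls.

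Among acetyltransferases, KAT5 was the member whose groups did not overlap. KAT5 (ENSBTAG00000005578), known as TIP60, the catalytic subunit of the NuA4 complex that acetylates H4 and H2A, had 15.49, 17.77 and 18.69 FPKM in treated libraries, against 21.83, 21.56 and 18.86 FPKM in control libraries. Its log2 fold change was -0.26 ± 0.13 (95% interval -0.58 to 0.07, adjusted p = 0.590), and the gap between the nearest treated and control values was small. With quantile normalization, rescaling to a fixed sum or trimmed-mean factors the KAT5 groups did overlap. HAT1 (ENSBTAG00000010118), which acetylates newly made H4 before it is deposited on DNA, had 23.97, 23.03 and 24.74 FPKM in treated libraries, against 23.95, 28.62 and 31.06 FPKM in control libraries. Only control replicate 1 lay among the treated values, and the log2 fold change was -0.21 ± 0.14 (adjusted p = 0.712). KAT8 (ENSBTAG00000010511), or MOF, which acetylates H4 at lysine K16, was the most abundant of the acetyltransferases, with 26.28, 30.75 and 33.58 FPKM in treated libraries, against 34.63, 25.44 and 25.30 FPKM in control libraries. Control replicate 1 was again the highest of all (log2 fold change 0.09 ± 0.17, adjusted p = 0.929).

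KAT2A and KAT2B, the paralogous catalytic subunits of the SAGA and ATAC coactivator complexes, differed in how tightly they were measured. KAT2A (ENSBTAG00000044019) averaged 9.94 ± 0.187 FPKM in treated cells and 9.65 ± 1.53 FPKM in control cells (log2 fold change 0.05 ± 0.16). KAT2B (ENSBTAG00000000746) averaged 13.4 ± 2.76 FPKM in treated cells and 11.5 ± 4.21 FPKM in control cells (log2 fold change 0.27 ± 0.31), and without control replicate 1 its log2 fold change was -0.06. KAT6A (ENSBTAG00000004015) and KAT6B (ENSBTAG00000002920), the MOZ and MORF enzymes that acetylate H3, had log2 fold changes of 0.05 ± 0.40 and -0.23 ± 0.42. Without control replicate 1 their log2 fold changes were -0.36 and -0.66, without a call. KAT7 (ENSBTAG00000018699), or HBO1, which acetylates H3 and H4 at replication origins, had one of -0.02 ± 0.20.

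EP300 and CREBBP, the p300 and CBP acetyltransferases that mark active enhancers, varied far more between libraries of the same group than between the groups. EP300 (ENSBTAG00000016198) had 12.85, 5.90 and 6.28 FPKM in treated libraries, against 3.15, 9.57 and 12.50 FPKM in control libraries. Treated replicate 1 and control replicates 2 and 3 were high, and treated replicates 2 and 3 and control replicate 1 were low. The means of 8.34 ± 3.91 FPKM in treated cells and 8.41 ± 4.78 FPKM in control cells gave a log2 fold change of 0.09 ± 0.53 (95% interval -1.19 to 1.37, adjusted p = 0.974). CREBBP (ENSBTAG00000026403) averaged 6.55 ± 1.39 FPKM in treated cells and 7.09 ± 3.04 FPKM in control cells (log2 fold change -0.03 ± 0.36). Without control replicate 1 the log2 fold change was -0.46 for EP300 and -0.41 for CREBBP, without a call.

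The p160 coactivators, which bind nuclear receptors and bring in p300 and CBP, were high and low in the same libraries as EP300. NCOA3 (ENSBTAG00000007489) had 8.58, 3.31 and 3.15 FPKM in treated libraries, against 1.25, 5.32 and 6.52 FPKM in control libraries (log2 fold change 0.27 ± 0.62, adjusted p = 0.939). NCOA2 (ENSBTAG00000020312) had 4.44, 2.19 and 2.07 FPKM in treated libraries, against 1.39, 3.71 and 4.62 FPKM in control libraries (log2 fold change -0.08 ± 0.45, adjusted p = 0.972). In both genes control replicate 1 was the lowest library. Without it their log2 fold changes were -0.35 and -0.52, without a call.

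The co-repressor scaffolds hold the class I deacetylases on chromatin. RCOR1 (ENSBTAG00000002336), the CoREST scaffold for HDAC1 and HDAC2, had 14.08, 10.17 and 9.67 FPKM in treated libraries, against 6.65, 10.77 and 12.10 FPKM in control libraries (log2 fold change 0.21 ± 0.26, adjusted p = 0.898). NCOR1 (ENSBTAG00000013271), which binds and activates HDAC3 and serves unliganded nuclear receptors, had 21.19, 15.89 and 14.23 FPKM in treated libraries, against 10.26, 18.18 and 20.37 FPKM in control libraries (log2 fold change 0.11 ± 0.29, adjusted p = 0.947). In both, the groups overlapped and control replicate 1 was the lowest library. SIN3B (ENSBTAG00000009330), one of the paired SIN3 scaffolds, had 15.93, 14.42 and 14.30 FPKM in treated libraries, against 10.48, 15.73 and 15.68 FPKM in control libraries (log2 fold change 0.11 ± 0.19, adjusted p = 0.927). SIN3A (ENSBTAG00000009985) averaged 9.64 ± 1.64 FPKM in treated cells and 9.16 ± 4.62 FPKM in control cells (log2 fold change 0.21 ± 0.42). All 4 scaffolds had a positive log2 fold change, and all 4 had a negative one without control replicate 1, between -0.29 for SIN3A and -0.03 for RCOR1.

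BRD2 and BRD3 are BET proteins, which bind acetylated histone tails through paired bromodomains and help transcription elongate. BRD2 (ENSBTAG00000011074) had 71.70, 64.91 and 65.67 FPKM in treated libraries, against 53.64, 95.56 and 93.30 FPKM in control libraries. Treated values lay between control replicate 1 and the other controls. The log2 fold change was -0.21 ± 0.24 with all libraries (adjusted p = 0.880) and -0.48 ± 0.10 without control replicate 1 (adjusted p = 0.0686). BRD3 (ENSBTAG00000010582) had 15.25, 13.41 and 12.72 FPKM in treated libraries, against 6.60, 15.20 and 17.16 FPKM in control libraries (log2 fold change 0.19 ± 0.35, adjusted p = 0.929), and its log2 fold change was -0.22 without control replicate 1. The ratio of BRD2 to BRD3 was 4.70, 4.84 and 5.16 in treated libraries, against 8.13, 6.29 and 5.44 in control libraries. All 3 treated ratios were below all 3 control ratios, a description of a pair looked at after the values were seen. It was 1 of 5 paralog ratios computed, and the groups overlapped in the other 4 (HDAC1 to HDAC2, KAT2B to KAT2A, EP300 to CREBBP and SIN3B to SIN3A).

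Differences between libraries of the same group followed a common order in most members. In 19 of the 34 members (55.9%), control replicate 1 was below both other controls and treated replicate 1 was above both other treated libraries, against 41.2% of all genes tested. These 19 included all 4 coactivators tested, all 4 scaffolds and both BET readers, 5 of the 8 acetyltransferases, 1 of the 7 sirtuins and 3 of the 9 other deacetylases tested. The opposite order, with control replicate 1 highest and treated replicate 1 lowest in its group, was found in 10 members, against 30.9% of all genes. Of those 10, 5 were sirtuins, and the others were HDAC8, HDAC10, HDAC11, KAT5 and KAT8. Control replicate 1 stood 1.87 below the mean of the other 2 controls in NCOA3 on the log2 scale, and 1.53 above it in HDAC10.

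Across the 34 members, the log2 difference of control replicate 1 from the other controls and that of treated replicate 1 from the other treated libraries had a Pearson correlation of -0.91 and a Spearman correlation of -0.92. Over all 11615 genes these were -0.73 and -0.82. The 2 differences share no library, and genes are not independent replicates, so the values are a description. Summed FPKM over all genes ran opposite to the common order, highest in control replicate 1 and lowest in treated replicate 1. It was 787186, 936152 and 912431 in treated libraries 1, 2 and 3, against 1134026, 847971 and 816087 in control libraries 1, 2 and 3. Over the 11615 tested genes, the deviations of treated replicate 1 from its group mean correlated with those of control replicates 2 and 3 (0.52 and 0.67), and those of treated replicates 2 and 3 with those of control replicate 1 (0.55 and 0.43). The groups as labelled did not overlap in any of the 55 genes called, nor in HDAC5. In HDAC5, treated replicate 1 and control replicate 1 each lay with the group of their label. These genes were singled out by the same labels, so they cannot show whether the labels are right. Whether the labels of these 2 libraries are right was not tested. Read depth behind the values is unknown, and the labels give no batch.

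**Figure D4:**
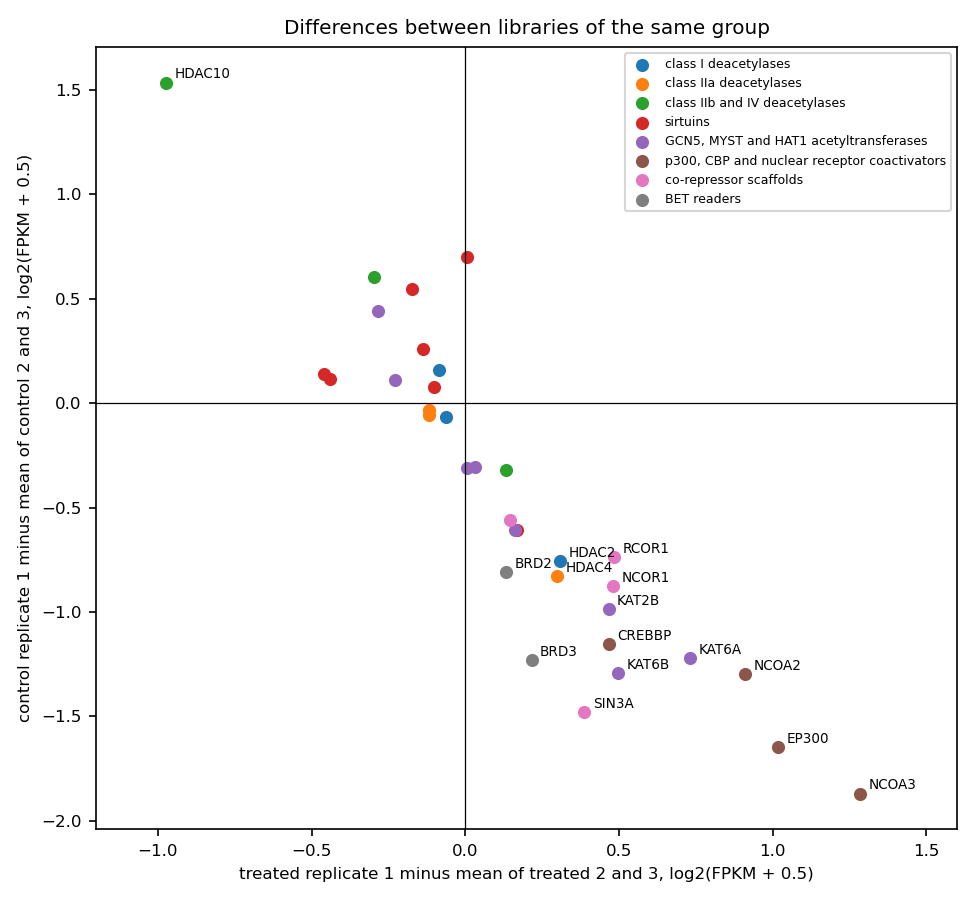
Each point is 1 of the 34 members, placed by the log2(FPKM + 0.5) of treated replicate 1 minus the mean of treated replicates 2 and 3 (x axis) and of control replicate 1 minus the mean of control replicates 2 and 3 (y axis), coloured by role. Coactivators, scaffolds and BET readers lie at lower right and HDAC10 at upper left, along 1 falling line (Pearson correlation -0.91).

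With the log2 of summed FPKM as a covariate, 4 members passed (11.8%), against 18.0% of all genes in that fit (11.7% higher and 6.27% lower). SIRT2 had a log2 fold change of 0.44 ± 0.06 (limma adjusted p = 0.00485), HDAC10 of 0.72 ± 0.12 (adjusted p = 0.00842), HDAC5 of 0.40 ± 0.08 (adjusted p = 0.0157) and BRD2 of -0.33 ± 0.09 (adjusted p = 0.0472). In HDAC10 and BRD2 all treated values lay inside the control range. The covariate was computed from the same FPKM values, and none of the 4 passed in any other fit. Without control replicate 1, 0 members passed in limma, where 1.76% of all genes did, with 8 members (23.5%) at an unadjusted p under 0.05, against 17.7% of all genes, and the groups did not overlap in 13 of 34 (38.2%), against 35.9% of all genes. Of the 13, 7 were higher in treated cells, namely HDAC5, HDAC10, HDAC11, SIRT2, SIRT4, SIRT5 and KAT8, and 6 were lower, namely BRD2, HAT1, HDAC4, KAT5, KAT6B and KAT7. HDAC5 kept its 3 treated values above all controls under every alternative scaling. SIRT2 did so too except with trimmed-mean factors. How many of all genes did so under every scaling was not counted. Leaving out a library cannot bring overlap to a gene that has none with all libraries.

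Of the 34 listed subunits of deacetylase complexes, 28 were tested and 0 passed in either direction (limma), where 0.474% of all genes did. At an unadjusted p under 0.05 there was 1 on the lower side and 0 on the higher, against 11.0% of all genes. That 1 was CHD3, an ATPase of the NuRD complex, with 19.22, 19.06 and 17.26 FPKM in treated libraries, against 27.04, 33.60 and 33.55 FPKM in control libraries. Every treated value of CHD3 was below every control value (log2 fold change -0.74 ± 0.14, adjusted p = 0.0950), and CHD3 did pass with trimmed-mean factors (adjusted p = 0.0485), with the summed FPKM as a covariate (adjusted p = 0.00166) and without control replicate 1 (adjusted p = 0.0244), over a range up to 0.802. RCOR2, a CoREST paralog, had a log2 fold change of 0.65 ± 0.28, and TBL1XR1, a subunit of the NCOR complex, of 0.47 ± 0.22, neither past the threshold. Groups did not overlap in 4 of the 28, against 19.7% of all genes. They were CHD3 on the lower side and RCOR2, TBL1XR1 and GATAD2A on the higher.

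Of the 42 listed subunits of acetyltransferase complexes, 36 were tested and 0 passed (limma). At an unadjusted p under 0.05 there was 1 on the higher side and 0 on the lower, against 11.0% of all genes. EPC1, the NuA4 scaffold that holds KAT5, had 14.89, 13.48 and 14.42 FPKM in treated libraries, against 9.41, 9.61 and 12.20 FPKM in control libraries (log2 fold change 0.45 ± 0.15, adjusted p = 0.328). Its groups did not overlap, nor did those of TADA1 on the higher side and MCRS1 on the lower. These were 3 of the 36 tested, against 19.7% of all genes. MRGBP, a NuA4 subunit, had a log2 fold change of 0.25 ± 0.15, and MCRS1, a subunit of the KAT8-containing NSL complex, of -0.22 ± 0.13. Of the 35 listed further readers of acetyl-lysine, 29 were tested and 0 passed. None had an unadjusted p under 0.05 either (limma), against 11.0% of all genes. SMARCA4, the BRG1 ATPase of SWI/SNF remodellers, had a log2 fold change of -0.25 ± 0.11, ZMYND8 of -0.18 ± 0.12 and YEATS4, a YEATS-domain reader, of -0.22 ± 0.16. Of the 29, only SMARCA4 had groups that did not overlap, on the lower side.

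A short list of 8 genes known to be induced by deacetylase inhibitors in other cells had 5 tested members, of which 1 rose and 0 fell. Across all genes 0.344% were called higher and 0.129% lower. H1F0, the linker histone H1.0, a gene long known to respond to butyrate, had 55.42, 54.09 and 58.02 FPKM in treated libraries, against 23.87, 31.30 and 26.20 FPKM in control libraries (log2 fold change 1.04 ± 0.13, limma adjusted p = 0.0437). Its groups were far apart, while the call was lost in 9 of 16 alternatives (adjusted p from 0.00161 to 0.568). CDKN1A, the p21 cell cycle inhibitor, had a log2 fold change of 0.18 ± 0.14, and GSN, the actin-severing gelsolin, of 0.14 ± 0.13. TXNIP, the thioredoxin-interacting protein, had one of -0.14 ± 0.18, and FOXO3, a forkhead transcription factor, one of 0.01 ± 0.28. H1F0 was known as a called gene when the list was written, so its call adds no independent support.

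The 8 epithelial markers examined (EPCAM, CDH1 and 6 keratins) summed to 12507 to 14965 FPKM in treated libraries and 15549 to 20353 FPKM in control libraries, without overlap, and none of the 8 passed. KRT5 carried that gap: the other 7 summed to 6482 to 8427 FPKM in treated libraries and 6589 to 10968 FPKM in control libraries. CDH1 was also lower in treated cells without overlap, by a narrow margin. It had 204.57, 171.95 and 192.85 FPKM in treated libraries, against 204.59, 234.03 and 269.26 FPKM in control libraries (log2 fold change -0.31). KRT14 was higher in treated cells without overlap (22.1 FPKM in treated cells and 15.9 FPKM in control cells on average). The 6 fibroblast markers summed to 32.5 to 42.0 FPKM in treated libraries and 21.3 to 40.3 FPKM in control libraries, most of it collagen. Of the 6, DCN and LUM were higher in treated cells without overlap (log2 fold changes of 0.76 and 0.57), though neither passed (limma, adjusted p = 0.305 and 0.345). Immune markers summed to 7.08 to 8.38 FPKM in treated libraries and 4.24 to 5.62 FPKM in control libraries, also without overlap. Most of it was CD14 (log2 fold change 0.65, limma adjusted p = 0.237), while CD68 averaged 0.61 FPKM in treated cells and 0.63 FPKM in control cells. PTPRC and CD3E reached at most 0.03 and 0.05 FPKM. Endothelial markers summed to 4.44 to 6.41 FPKM in treated libraries and 3.16 to 5.18 FPKM in control libraries. Most of it was VWF, whose groups overlapped (log2 fold change 0.55, limma adjusted p = 0.464). KDR went the other way, with means of 0.57 FPKM in treated cells and 1.31 FPKM in control cells. PECAM1 and CDH5 reached no more than 0.06 and 0.03 FPKM. Adipocyte markers summed to 1.23 to 2.32 FPKM in treated libraries and 0.38 to 0.80 FPKM in control libraries, without overlap. LEP carried that gap (means of 1.51 FPKM in treated cells and 0.14 FPKM in control cells), while PLIN1 was lower in treated cells (0.17 and 0.31 FPKM). All adipocyte markers were too low to be tested. The part of these differences in the values of the histone acetylation genes was not tested.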

How the data were processed

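RNA was measured in 6 libraries, made per the labels' protocols from poly(A)-selected RNA with a TruSeq kit and read in pairs on an Illumina HiSeq. The authors deposited 1 table of FPKM values, rounded to 2 decimals. Per the submitters' processing notes the build was ARS-UCD1.2 and DESeq2 was used, with no role given. The sources used here do not give the aligner, annotation or strand setting, so genes that overlap or resemble one another are uncertain. No coordinates or sequences are given.

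Columns were matched to samples by name: treated columns carry NaAc and a number, and only treated titles name it. The 11615 genes whose mean over the 6 libraries reached 1 FPKM were tested on log2(FPKM + 0.5) with limma 3.58.1 (R 4.3.3), with a mean-variance trend, 2-sided, adjusted by Benjamini-Hochberg over all of them at 0.05. Standard errors and 95% intervals are moderated, intervals not adjusted for multiple genes. The procedure was tested on simulated data with independent spread in each gene, which leaves out differences between libraries that many genes share. Plots used matplotlib 3.10.9. FPKM values hold no read counts, so depth is unknown and replicate spread is the only error.

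The members and lists were chosen with earlier results of these data known. All members are named. Values in every library are given for members whose groups do not overlap and, in each role class, for the 2 of smallest p and the 1 of highest mean. Of each other list, called genes or the 3 of smallest p are named. TXNIP, FOXO3, GATAD2A, TADA1, DCN, LUM, KRT5, KRT14, CDH1, CD14, CD68, VWF, KDR, LEP and PLIN1 were added after their values were seen. Protein lengths were not used here. The alternatives were another pseudocount, filter, scaling or variance model, a replicate block, a covariate and leaving out each library.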

Additional observations from a re-analysis of the deposited data

How the results depend on the processing

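The number of members past the threshold was 0 with all libraries and stayed 0 in 15 of 16 alternatives, the exception being the summed FPKM as a covariate with 4. All genes past the threshold numbered 55 (40 higher and 15 lower), with 25 under no filter on low values, 33 with a mean of at least 5 FPKM, 23 after rescaling to the same sum, 0 with the replicate block, 2089 with the covariate and 0 to 205 when 1 library was left out. Quantile normalization gave 39 higher and 28 lower, and trimmed-mean factors 30 higher and 16 lower. Members whose groups did not overlap numbered 6 after rescaling (17.6%, where 19.5% of all genes did not overlap), against 3 unscaled, and 3 to 13 with 1 library left out. Leaving out a library cannot lower this count in the same members. The 13 were found without control replicate 1 (38.2%, against 35.9% of all genes). For the other libraries the share of all genes was not counted. Other pathway genes past the threshold numbered 1, with 0 under no filter, rescaling, no trend or the replicate block, 2 with trimmed-mean factors, 7 with the covariate and 0 to 2 with 1 library left out. The replicate number as a block left 0 members and 0 genes past the threshold in limma, with 584 genes at an unadjusted p under 0.05. Same-numbered libraries deviated from their group means in opposite ways (correlations across genes of -0.73, -0.37 and -0.38). The labels do not say whether such libraries share more than a number. These correlations cannot decide it, since deviations within a group are bound together and control and treated replicate 1 stood apart. The cause of the shifts in these counts was not tested.

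Members on the higher side numbered 20 of 34, against 15 with quantile normalization, 25 after rescaling, 17 with trimmed-mean factors, 14 with the covariate and 8 without control replicate 1. Signs turned in 21 members, none of them called. After rescaling, log2 fold changes were 0.074 for HDAC1, 0.016 for HDAC8, 0.016 for SIRT1, 0.046 for KAT7 and 0.033 for CREBBP. With quantile normalization they were -0.011 for HDAC2, -0.0045 for HDAC6, -0.054 for KAT2A, -0.099 for KAT6A and -0.033 for EP300, and with trimmed-mean factors -0.028 for HDAC2, -0.030 for KAT2A and -0.024 for KAT6A. With the covariate they were -0.064 for HDAC2, -0.16 for KAT6A, -0.19 for EP300, -0.057 for NCOA3, -0.040 for NCOR1 and -0.013 for SIN3A. With 1 library left out, log2 fold changes ran from -0.22 to 0.43 for BRD3, -0.41 to 0.22 for CREBBP, -0.46 to 0.46 for EP300, -0.039 to 0.021 for HDAC1, -0.20 to 0.23 for HDAC2, -0.39 to 0.069 for HDAC4, -0.021 to 0.15 for HDAC6, -0.052 to 0.16 for KAT2A, -0.061 to 0.48 for KAT2B, -0.36 to 0.31 for KAT6A, -0.66 to 0.096 for KAT6B, -0.23 to 0.081 for KAT7, -0.52 to 0.20 for NCOA2, -0.35 to 0.65 for NCOA3, -0.19 to 0.29 for NCOR1, -0.032 to 0.38 for RCOR1, -0.29 to 0.50 for SIN3A, -0.077 to 0.21 for SIN3B, -0.24 to 0.17 for SIRT1 and -0.15 to 0.074 for SIRT6.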
